A study of Rattus norvegicus with 6 samples.

Results

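Transcripts of the distal nephron and collecting duct were measured in the renal cortex of rats given the herbicide monuron or its vehicle. The set held 33 genes, chosen by name as well-known transport, channel, receptor and regulatory genes of the thick ascending limb, the distal convoluted tubule, the principal cell and the intercalated cell. The array carried a named probe for 30 of them, and 29 passed the filter on dim probes, among 30229 genes tested in all. Trpm6, Fxyd4 and Atp6v0a4 were not analysed here. Pvalb, the calcium-binding protein parvalbumin, had 1 probe that was not well above background on any of the 6 arrays and was not tested.

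The animals were male Sprague-Dawley rats of the Crl:CD(SD) stock, 5 weeks old when bought and fed a basal diet. One group of 3 received corn oil for 4 weeks, and the other group of 3 received monuron, a phenylurea herbicide, at 200 mg/kg/day for the same 4 weeks. Total RNA of the cortex from each animal was labelled with Cy3 and hybridised to an Agilent array, giving 6 one-colour arrays. The labels state no route of dosing. The comparison is that of monuron-dosed with vehicle-treated cortex.

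Beyond the proximal tubule, the thick ascending limb reabsorbs salt without water, the distal convoluted tubule adjusts sodium chloride, calcium and magnesium, and the collecting duct sets the final water, sodium, potassium and acid content of the urine. Principal cells take up sodium through the epithelial sodium channel and water through aquaporins under the control of aldosterone and vasopressin. Intercalated cells move protons, bicarbonate and ammonia with a vacuolar proton pump, anion exchangers and Rh-family channels.

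Levels are the scanner's processed signal divided by the 75th percentile of that array, so a level of 1 is the 75th percentile of all non-control probes. Levels of different genes come from different probes and are not set against each other. Differences are log2 monuron minus log2 corn oil with a standard error (SE), and a gene was called at an adjusted p under 0.05 in limma. Between 60.8% and 70.4% of the probes lay well above background on each array, and no probe of any array was saturated. Each group was hybridised on its own slide and scanned on its own day, so treatment cannot be told apart from slide or scan day for any value below. The proximal tubule markers were all 12 above the filter and summed to 2487 to 2729 in corn oil and 2036 to 2284 in monuron. None of the 12 was called, 0 in either direction. In limma 5 had an unadjusted p under 0.05, all lower, beside 6.82% of all genes tested that were lower at this p. The sum of 8 injury genes was 36.2 to 42.6 in corn oil and 47.6 to 62.8 in monuron. Most of this sum came from Clu, Krt18 and Spp1, so it does not read the 8 genes as a set. Clu reached 23.0 on monuron replicate 3 but differed by 0.0059 between the groups. Of the 8, 3 were called higher, namely Havcr1, Spp1 and Krt8, beside 0.923% of all genes tested. Differences lay above 0 for 7 of the 8. All monuron arrays lay above all corn oil arrays for 5, beside 15.3% of all genes tested. Havcr1, the injury receptor KIM-1, was 0.0217 to 0.0302 in corn oil and 0.269 to 0.424 in monuron, with a limma adjusted p of 0.00616. In corn oil it was near the background limit and past it on 2 arrays. It passed the filter only through the monuron group, where it is high, so its difference and its call carry that limit.

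Among the distal nephron genes, Kcne1, a regulatory subunit of voltage-gated potassium channels, fell 1.67-fold, and it was the single member called among the 29. No member was called higher, against 0.923% of all genes tested, and 1 was called lower, against 0.427%. At an unadjusted p under 0.05, limma gave 2 members higher, against 10.8% of all genes, and 3 lower, against 6.82%. All 3 monuron arrays lay above all 3 corn oil arrays for 3 members, against 15.3% of all genes, and below them for 4, against 10.4%. The median difference over the 29 was -0.02, beside 0.02 over all genes tested, with 13 members above 0 and 16 below. The median size of the difference, whatever its sign, was 0.16 for the members and 0.14 for all genes tested. Cortex is a mixture of cells, so fewer cells of a type and less RNA per cell cannot be told apart in these values.

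The 95% interval of the difference lay inside 2-fold in both directions for 28 of the 29 members, beside 87.8% of all genes tested. The exception was Aqp4, whose interval ran from 1.37-fold to 2.87-fold higher in monuron. A tighter bound of 1.5-fold held the interval for 19 members (65.5%), beside 67.2% of all genes. All 6 tested genes of the distal convoluted tubule met that tighter bound, whereas 3 of 7 thick limb genes, 6 of 9 principal cell genes and 4 of 7 intercalated cell genes did so.

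**Figure D1:**
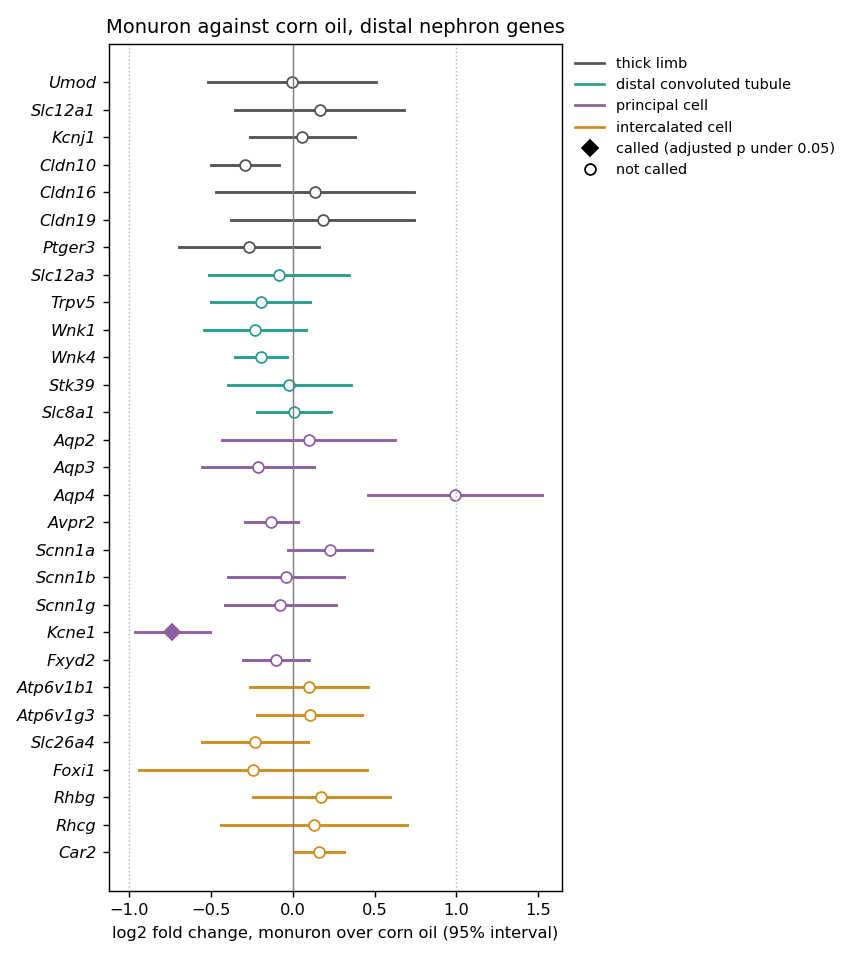
Log2 fold change of monuron over corn oil for the 29 tested genes (points), with 95% intervals (bars), grouped by tubule segment. Kcne1 at -0.74 is the lowest value and Aqp4 at 0.99 the highest, and the other 27 lie between -0.29 and 0.23.

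The thick ascending limb was read through 7 genes, and none was called. Umod, which encodes uromodulin, the most abundant protein of normal urine, stood at 279, 371 and 264 in the corn oil arrays and at 234, 366 and 316 in the monuron arrays. Its groups overlapped across almost their whole ranges, and the difference was -0.01 ± 0.21 (SE). Slc12a1, the furosemide-sensitive sodium-potassium-chloride cotransporter of the apical membrane, stood at 16.4, 21.1 and 18.0 in corn oil and at 15.6, 26.4 and 21.2 in monuron, a difference of 0.16 ± 0.21. Kcnj1, the ROMK channel that recycles potassium for this cotransporter, ranged from 1.69 to 2.06 and from 1.70 to 2.21, with a difference of 0.06 ± 0.13. For both genes the lowest and the highest arrays of the groups interleaved.

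The claudins of this segment seal and select the path between cells. Cldn10, which in this segment forms sodium-selective pores, was 4.90, 4.38 and 4.87 in corn oil and 4.09, 3.56 and 3.90 in monuron. It was read by 1 probe, and its cell of origin cannot be read from these arrays. All 3 monuron arrays were below all 3 corn oil arrays, by a difference of -0.29 ± 0.09 that did not pass the test (unadjusted p = 0.0145, limma adjusted p = 0.176). Cldn16 and Cldn19, which together form the calcium and magnesium path, were spread more widely. Cldn16 ranged from 0.355 to 0.526 in corn oil and from 0.338 to 0.581 in monuron. Cldn19 ranged from 3.77 to 5.47 and from 4.04 to 6.51, so both overlapped. The 3 Cldn19 probes gave differences from -0.08 to 0.18. Ptger3, a receptor for prostaglandin E2, differed by -0.27 ± 0.17, again with overlapping groups.

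Monuron replicate 2 was the highest of its group for 4 of the 7 thick limb genes, namely Umod, Slc12a1, Cldn16 and Cldn19, and corn oil replicate 2 was the highest of its group for 4. The spread within groups was large here, with a median SD of 0.26 in corn oil and 0.33 in monuron on the log2 scale, beside 0.13 and 0.12 over all genes tested. The median difference of the segment was 0.06, with 4 of 7 members above 0.

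Partner genes of the thick limb gave the same count. Of 11 tested, 0 were called in limma in either direction, beside 0.923% of all genes tested that were called higher and 0.427% lower. An unadjusted p under 0.05 was found for 3, beside 17.6% of all genes tested. Ptgs2, the inducible cyclooxygenase of the macula densa and neighbouring thick limb, was 0.0482, 0.0300 and 0.0327 in corn oil and 0.0731, 0.0567 and 0.0639 in monuron. These are dim signals that cleared the background limit on 2 arrays of the corn oil group. Ptgs2 thus passed the filter only through the monuron group, where it is higher. The difference of 0.83 ± 0.20 had an adjusted p of 0.127. Foxq1, a forkhead factor, differed by -0.64 ± 0.21 (adjusted p = 0.213) with the monuron arrays all lower. Egf, the growth factor precursor made in the thick limb and distal convoluted tubule, was 33.9 to 42.9 in corn oil and 28.9 to 36.1 in monuron, and its groups overlapped.

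In the distal convoluted tubule, 6 genes were tested, and none was called. Slc12a3, the thiazide-sensitive sodium-chloride cotransporter that defines the segment, was 31.5, 22.1 and 25.2 in corn oil and 28.9, 21.1 and 24.0 in monuron. The ranges nearly coincided, and the difference was -0.09 ± 0.17. The 3 Slc12a3 probes gave differences from -0.10 to 0.13, so no direction is given. This cotransporter is phosphorylated by the kinase SPAK, the product of Stk39, which acts downstream of the WNK kinases.

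Wnk4 was 1.65, 1.68 and 1.75 in corn oil and 1.51, 1.42 and 1.52 in monuron. The 3 monuron arrays all lay below the 3 corn oil arrays, and replicates were tight, but the difference of -0.19 ± 0.06 was not called (unadjusted p = 0.0240, adjusted p = 0.214). Wnk1 was 33.02, 39.05 and 29.05 against 28.70, 26.39 and 30.56, a difference of -0.23 ± 0.13 with overlap. Its 4 probes gave differences from -0.23 to 0.05, and Wnk1 is transcribed in many cell types besides this segment. Stk39 differed by -0.02 ± 0.15, and its 2 probes gave -0.02 and 0.03.

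The calcium path of the late distal tubule runs through the apical channel TRPV5 and the basolateral sodium-calcium exchanger encoded by Slc8a1. Trpv5 was 0.214, 0.222 and 0.177 in corn oil and 0.158, 0.189 and 0.187 in monuron, a difference of -0.20 ± 0.12 with overlap. A dimmer Trpv5 probe gave 0.33, so the probes disagreed in sign and no direction is given for the gene. Slc8a1 ranged from 0.479 to 0.550 in corn oil and from 0.465 to 0.530 in monuron, and its 6 probes gave differences from -0.38 to 0.01. The median of the segment was -0.14, with 1 of 6 members above 0, namely Slc8a1 at 0.0063. That median was -0.07 with the mean of the probes of each gene, -0.08 with normexp and -0.05 without scaling.

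Of 14 tested partners in the distal convoluted and connecting tubule, limma called 0 in either direction. Only 1 had an unadjusted p under 0.05, beside 17.6% of all genes tested. That gene, S100g, encodes calbindin-D9k, a vitamin D-responsive calcium carrier. It was 3.38, 6.13 and 4.29 in corn oil and 11.5, 9.83 and 7.44 in monuron. All 3 monuron arrays were above the corn oil arrays, and the difference of 1.08 ± 0.26 had an adjusted p of 0.125. The larger calcium carrier of the segment, calbindin-D28k, encoded by Calb1, differed by 0.03 ± 0.15. Oxsr1, a kinase related to SPAK, was above the corn oil range on all monuron arrays by 0.20 ± 0.09 (adjusted p = 0.311).

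**Figure D2:**
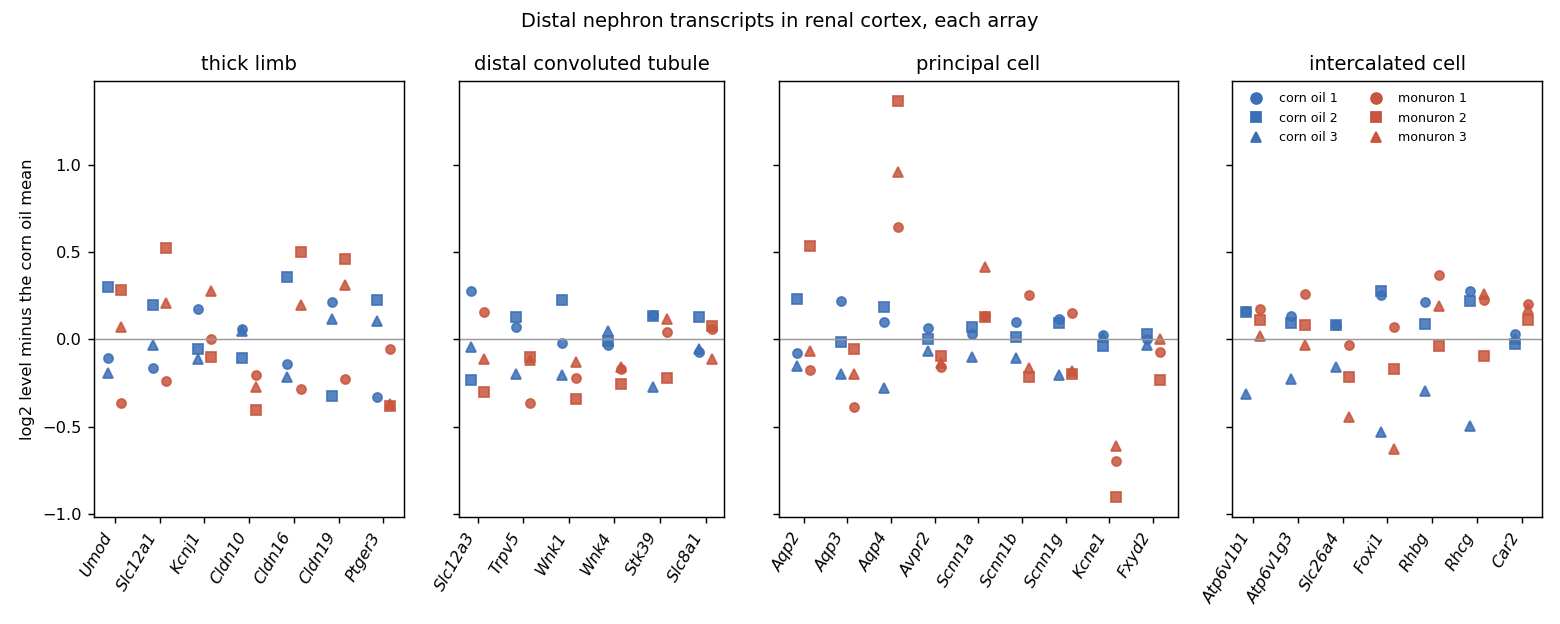
Log2 level minus the corn oil mean of the same gene, for each tested gene (horizontal axis) on each of the 6 arrays (points), in 4 panels for the thick limb, the distal convoluted tubule, the principal cell and the intercalated cell. The arrays of both groups intermix for most genes, while Kcne1 lies below and Aqp4 above the corn oil arrays on every monuron array.

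The principal cell held the called gene. Kcne1 was 1.43, 1.38 and 1.42 in corn oil and 0.872, 0.753 and 0.924 in monuron. The corn oil arrays nearly coincided and the 3 monuron arrays all lay well below them. The difference was -0.74 ± 0.09, with a 95% interval of the ratio from 0.512 to 0.703, and the adjusted p was 0.0322 in limma. The gene was read by 1 probe. Leaving out any single array kept the difference between -0.80 and -0.65 but ended the call. The adjusted p was then 0.104, 0.105 and 0.106 without corn oil replicates 1, 2 and 3, and 0.103, 0.0816 and 0.0844 without monuron replicates 1, 2 and 3. KCNE1 protein assembles with the KCNQ1 potassium channel, and its transcript is known from the proximal tubule and the heart as well as the distal nephron, so its cell of origin cannot be read from these arrays. Beside it, the 12 proximal tubule markers had a median difference of -0.25, and their part in the Kcne1 result was not tested.

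The bases just upstream of the annotated start of Kcne1 are shown because it is the member that was called. They are the 150 bases before the start in RefSeq's annotation of GRCr8, at chr11:45077034-45077183 on the minus strand, printed 5′ to 3′ along the gene.
Kcne1: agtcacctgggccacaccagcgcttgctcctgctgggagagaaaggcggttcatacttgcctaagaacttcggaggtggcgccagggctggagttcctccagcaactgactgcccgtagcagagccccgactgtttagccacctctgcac
No letter is in capitals because none of the 4 motifs searched on both strands occurs in it. The motifs were the forkhead letters TGTTTAC, the HNF1 letters GTTAAT, the cAMP response element TGACGTCA and the antioxidant response element TGACNNNGC. Over 33469 rat promoter windows of this length they occur in 1.82%, 3.74%, 1.36% and 6.58%, and over the 30 members with an entry in 2, 3, 0 and 2. The absence of a match says only that these letters are not in this window.

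The aquaporins of the principal cell form its water path. Aqp2, the vasopressin-regulated channel of the apical membrane, was 97.4, 121 and 92.8 in corn oil and 91.0, 149 and 98.2 in monuron. The monuron arrays spanned a wider range that enclosed the corn oil arrays, and the difference was 0.10 ± 0.21. Aqp3, a channel of the basolateral membrane, was 36.8, 31.3 and 27.6 against 24.3, 30.5 and 27.6, a difference of -0.21 ± 0.14 with overlap.

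Aqp4, the other basolateral water channel, showed the largest difference in size among the 29 members. It was 0.679, 0.720 and 0.523 in corn oil and 0.991, 1.63 and 1.23 in monuron. All 3 monuron arrays lay above the corn oil arrays, by 1.99-fold on average, a difference of 0.99 ± 0.22. It was not called (unadjusted p = 0.00403, adjusted p = 0.105). Of 6 Aqp4 probes, 4 passed the filter, and their differences were 0.15, 0.78, 0.99 and 1.27. The probe with 0.78 ± 0.55 passed only through the monuron group, being under the background limit on corn oil replicates 1 and 2. It was 0.0130, 0.0317 and 0.0577 in corn oil and 0.0418, 0.0673 and 0.0425 in monuron, with overlap. The probe with 1.27 ± 0.16, dimmer than the probe used for the gene, was 0.0553, 0.0588 and 0.0423 in corn oil and 0.115, 0.144 and 0.117 in monuron. When every probe was tested on its own, a setting added after these probes were seen, this probe had an adjusted p of 0.0326 and the brightest had 0.107. The probe with 0.15 stood at 0.187 to 0.204 in corn oil and 0.207 to 0.240 in monuron. Leaving the probe with 0.78 aside, the passing Aqp4 probes differed in size but not in sign. Aqp4 is also known from the proximal tubule of some rodents and from the inner medullary collecting duct. Of the 8 inner medulla and thin limb markers 0 were called in limma. An unadjusted p under 0.05 was found for 3, all higher, beside 10.8% of all genes tested. Their median difference was 0.05, from -0.25 for the water channel gene Aqp1 to 0.45 for the urea transporter gene Slc14a2. Their sum was 120 to 138 in corn oil and 90.7 to 127 in monuron. Most of this sum was Aqp1, at 131, 112 and 128 in corn oil and 81.5, 116 and 119 in monuron. Aqp1 is also on the list of proximal tubule markers. Of the 8 markers, 5 had differences above 0 and 3 below, and their part in the Aqp4 values was not tested. Of 6 markers of the outer medullary (S3) proximal tubule, 0 were called in limma. Their median difference was 0.36, with 4 above 0 and 2 below. They summed to 28.2 to 47.1 in corn oil and 66.8 to 80.4 in monuron, mostly from Slc7a13 and Acsm3. The 12 proximal tubule markers had a median of -0.25, with 2 above 0 and 10 below. The part of these 2 lists in the Aqp4 values was not tested either.

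**Figure D3:**
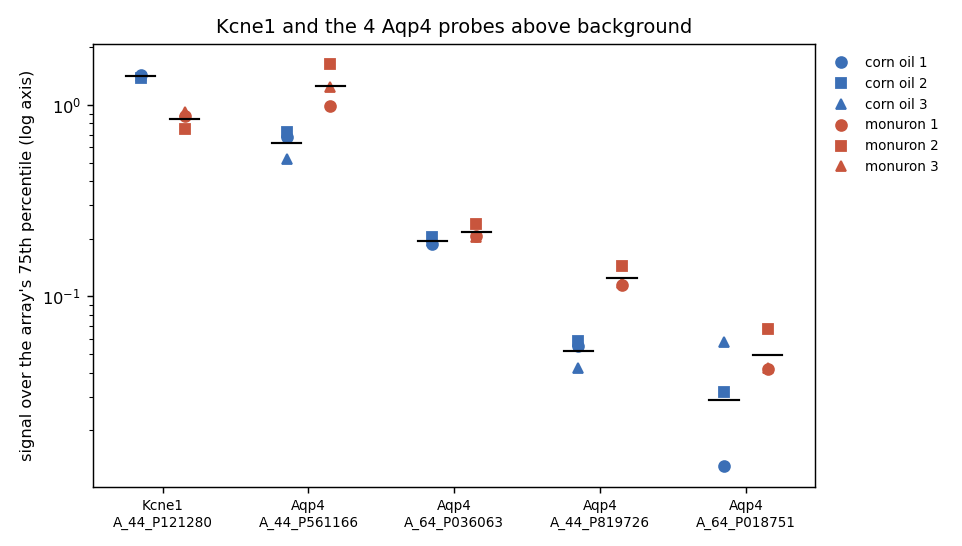
Signal over the 75th percentile of the array (vertical log axis) for the Kcne1 probe and the 4 Aqp4 probes that passed the filter, on each of the 6 arrays (points), with the geometric mean of each group (bars). Probes are not comparable in level with each other. Kcne1 stands between 1.38 and 1.43 in corn oil and between 0.753 and 0.924 in monuron, and the Aqp4 probe used for the gene stands at 0.523 to 0.720 and 0.991 to 1.63.

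Avpr2, the vasopressin V2 receptor that drives Aqp2 to the membrane, was 1.45, 1.38 and 1.32 in corn oil and 1.24, 1.29 and 1.26 in monuron. The groups did not overlap, but they were separated by less than the corn oil range, and the difference of -0.13 ± 0.07 was not called (adjusted p = 0.365). The epithelial sodium channel was read by all 3 of its subunits. Scnn1a, the alpha subunit, was 1.18, 1.21 and 1.08 against 1.27, 1.26 and 1.54, a difference of 0.23 ± 0.11 without overlap (adjusted p = 0.337). Scnn1b and Scnn1g, the beta and gamma subunits, differed by -0.04 ± 0.14 and -0.08 ± 0.14, both with overlap. Fxyd2, the gamma subunit of the sodium pump, which is present in several tubule segments, ranged from 172 to 180 in corn oil and from 150 to 177 in monuron and differed by -0.10 ± 0.08.

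Over the 9 tested principal cell genes the median difference was -0.08, with 3 above 0. Of 14 tested partner genes, limma called 0 in either direction, and 2 had an unadjusted p under 0.05, beside 17.6% of all genes tested. Edn1, endothelin-1, a peptide that restrains sodium and water uptake in the collecting duct and is also made by endothelium, was 0.0373, 0.0217 and 0.0207 in corn oil and 0.0553, 0.0979 and 0.0883 in monuron. Only 1 array of the corn oil group cleared the background limit for it, so it passed the filter only through the monuron group, where it is higher. With that limit, the difference was 1.61 ± 0.31, with a limma adjusted p of 0.0873. The 7 endothelial markers, all with differences below 0, summed to 33.1 to 35.9 in corn oil and 27.8 to 34.8 in monuron, and their part in the Edn1 values was not tested. Prss8, the channel-activating protease prostasin, differed by -0.34 ± 0.13 (adjusted p = 0.256).

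The aldosterone pathway of these cells was read through 3 partners. The mineralocorticoid receptor gene Nr3c2 was 1.62, 1.56 and 1.16 in corn oil and 1.31, 0.937 and 1.24 in monuron, a difference of -0.32 ± 0.19. Hsd11b2, the enzyme that protects this receptor from glucocorticoids, differed by -0.20 ± 0.13. Sgk1, a kinase induced by aldosterone, was 12.5, 11.2 and 9.18 in corn oil and 6.32, 13.6 and 6.71 in monuron. For Sgk1 the monuron arrays were split, with replicate 2 above and replicates 1 and 3 below every corn oil array, and none of the 3 genes was called.

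The intercalated cell was read through 7 genes, and none was called. Atp6v1b1, the B1 subunit of the vacuolar proton pump that is typical of these cells, was 17.0, 16.9 and 12.2 in corn oil and 17.1, 16.4 and 15.4 in monuron. Atp6v1g3, the kidney form of its G subunit, was 88.9, 86.2 and 69.3 against 97.0, 85.7 and 79.0. In both genes corn oil replicate 3 was the lowest of all 6 arrays, and the differences were 0.10 ± 0.15 and 0.10 ± 0.13. A further probe of each gene gave -0.12 and -0.13, so no direction is given for either.

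Foxi1, the forkhead transcription factor required for intercalated cell identity, was 12.3, 12.5 and 7.14 in corn oil and 10.8, 9.15 and 6.65 in monuron. The groups overlapped, and the difference of -0.24 ± 0.28 had the widest error of the 29. Because Atp6v1b1 is a known target of this factor, its upstream window is shown with the forkhead letters TGTTTAC in capitals. It covers the 150 bases before the annotated start in GRCr8, at chr4:117781294-117781443 on the plus strand, from RefSeq.
Atp6v1b1: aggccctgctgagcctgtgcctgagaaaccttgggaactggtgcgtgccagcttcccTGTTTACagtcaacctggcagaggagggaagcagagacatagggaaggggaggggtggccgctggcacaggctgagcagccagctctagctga
The match begins 93 bases before the start and is a description of the letters, not a shown site. It was present in 1 of the 7 intercalated cell promoters with an entry, and among the other members only in that of Avpr2, where it begins 131 bases before the start.

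Slc26a4, pendrin, the chloride-bicarbonate exchanger of the non-A cells, was 53.7, 53.6 and 45.4 in corn oil and 49.6, 43.7 and 37.2 in monuron. The groups overlapped, with a difference of -0.23 ± 0.13. The ammonia channels Rhbg and Rhcg, of the basolateral and apical membranes, ranged from 6.73 to 9.59 and from 5.56 to 9.49 in corn oil, and from 8.06 to 10.69 and from 7.35 to 9.38 in monuron. Their differences were 0.17 ± 0.17 and 0.13 ± 0.23. Again corn oil replicate 3 gave the lowest value of each.

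Car2, the cytosolic carbonic anhydrase that supplies protons and bicarbonate, was 24.5, 23.6 and 24.0 in corn oil and 27.6, 25.9 and 27.1 in monuron. All 3 monuron arrays were above the corn oil arrays and the replicates were tight, but the difference of 0.16 ± 0.06 was not called (unadjusted p = 0.0402, adjusted p = 0.260). Car2 is also carried by red blood cells and the proximal tubule. Of the 6 tested erythroid markers, 5 were called higher (Alas2, Hbb-b1, Klf1, Hbb and Hba-a1), beside 0.923% of all genes tested. All 6 lay above the corn oil arrays on every monuron array, beside 15.3% of all genes tested. The sum of the 6 was 646 to 888 in corn oil and 1518 to 1630 in monuron. The part of red cells in the Car2 values was not tested.

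Of 13 tested intercalated cell partners, limma called 0 in either direction, and 4 had an unadjusted p under 0.05, all higher and all without overlap, beside the 10.8% and 15.3% of all genes given above. Over all 52 partners of the 4 segments, 10 had an unadjusted p under 0.05, beside 17.6% of all genes tested. Slc4a1, the anion exchanger AE1 of A-type cells, is also the band 3 protein of red cells and one of the 6 erythroid markers. It was 11.0, 8.42 and 5.85 in corn oil and 16.6, 13.5 and 17.0 in monuron, a difference of 0.93 ± 0.24 (adjusted p = 0.142), beside the erythroid sums given for Car2. Atp6v0d2, the d2 subunit of the proton pump, was 7.60, 6.94 and 5.31 in corn oil and 9.39, 9.24 and 8.99 in monuron. Its difference was 0.49 ± 0.14 (adjusted p = 0.170). The others, Car15 and Aqp6, differed by 0.61 ± 0.22 and 0.47 ± 0.18. In Slc4a1, Atp6v0d2, Car15 and Aqp6, corn oil replicate 3 was the lowest of the 6 arrays. The 7 members of the segment had a median difference of 0.10, which is the value of Atp6v1g3, and 5 lay above 0, Atp6v1b1 and Atp6v1g3 among them. The median was -0.0072 with the mean of the probes of each gene and -0.09 without the 2 arrays highest in hepatocyte markers, so no direction is given for the segment.

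The same array stood low across the collecting duct. Corn oil replicate 3 was the lowest of its group for 20 of the 29 members (69.0%), beside 36.4% of all genes tested, and among these were 8 of 9 principal cell genes and 6 of 7 intercalated cell genes. The median intercalated cell gene deviated from its corn oil mean by -0.30 on that array, by 0.16 and 0.09 on corn oil replicates 1 and 2, and by 0.20, -0.04 and 0.02 on the monuron arrays. The corn oil range exceeded the group difference in 22 of 29 members (75.9%), a share near the 72.4% of all genes, and in 5 of 9 principal cell genes (55.6%).

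That array also differed in liver transcripts. The mean log2 level of the 11 hepatocyte markers was -0.16, -0.22 and 1.03 in corn oil and 1.56, 0.59 and 0.34 in monuron, with none of the 11 called. Corn oil replicate 3 and monuron replicate 1 were the highest. The intercalated cell median was -0.30 and 0.20 on these arrays, and the part of liver transcripts in it was not tested. Without these 2 arrays no member was called, and Kcne1 differed by -0.75 with an adjusted p of 0.228. Foxi1 then differed by -0.66, Slc26a4 by -0.41, Atp6v1g3 by -0.09 and Rhbg by -0.07, and Atp6v1g3 and Rhbg were among 6 uncalled members whose sign turned.

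**Figure D4:**
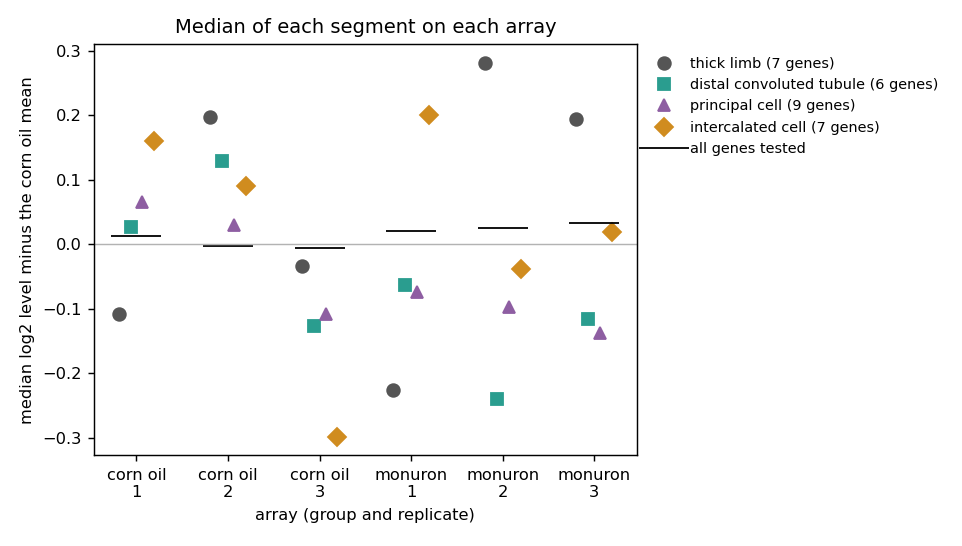
Median over the tested genes of each segment of the log2 level minus the corn oil mean (vertical axis) on each of the 6 arrays (horizontal axis). The intercalated cell point is lowest on corn oil replicate 3, at -0.30. The thick limb points run from -0.23 on monuron replicate 1 to 0.28 on monuron replicate 2.

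All directions above are relative to the 75th percentile of the array. Scaling instead on the spike-in controls, which were brighter on the monuron arrays, moves every gene down by the same amount and so carries no information on single members. The median of all genes went from 0.02 to -0.48, Kcne1 to -1.24 and Aqp4 to 0.49. With that shift 20 of 29 members were called lower, beside 20693 of the 30229 genes tested.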

How the data were processed

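The authors deposited 1 scanner file per array, with intensity values per spot, and a table of values that, tested against those files, holds each intensity as a ratio to 1 constant per array (within 0.0497% for values of at least 0.1). Per the submitters' processing notes, the scans were read with Agilent Feature Extraction 10.7. Here the deposited processed intensity, already background-corrected by the scanner software, was divided by the 75th percentile of each array and log2-transformed. Control spots (1439) were left out, leaving 61537 probes. A probe was kept (41125) where the scanner marked it well above background in all 3 animals of a group, and the brightest probe stood for a gene. Accessions in the files were matched to RefSeq's table for GRCr8, which named 28206 probes (45.8%). Unnamed probes were tested under their identifiers. Groups were compared with lmFit and eBayes of limma 3.58.1 in R 4.3.3, with Benjamini-Hochberg adjustment over 30229 genes. The code was tested on simulated data. The labels give 3 animals per group, and p-values measure only the spread between these samples. The number of arrays limits the precision. The table is linear and not centred by gene, with column medians of 0.109, 0.111, 0.112, 0.111, 0.111 and 0.110.

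Every member is named, and of each partner list the called genes, the 2 smallest p-values and a preset few. Car15 and Aqp6 were named after their values were seen. Some listed partner genes are not reported here. Members and lists were chosen with earlier results of these data known. The files hold the median spot signal but no mean, so normexp used the median. Alternatives were other scalings, background corrections, filters, probe rules, variance models, the replicate block, the authors' table and left-out arrays.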

Additional observations from a re-analysis of the deposited data

How the results depend on the processing

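Main counts over all genes were 279 higher and 129 lower, with 0 members higher and 1 lower. Without scaling 61 genes were lower and the principal cell median was 0.010. With spike-in scaling 20693 genes and 20 members were lower, and the medians were -0.45 (thick limb), -0.64 (distal convoluted tubule), -0.58 (principal cell) and -0.40 (intercalated cell). The mean log2 spike-in signal was 12.98 to 13.17 on corn oil and 13.61 to 13.69 on monuron arrays. This common shift turned 12 uncalled members from above 0 to below 0, which it fixes by construction. Of these 12, 6 were called lower after the shift. Kcnj1 went to -0.45, Slc8a1 to -0.50, Scnn1a to -0.28, Atp6v1b1 and Atp6v1g3 to -0.40 and Car2 to -0.34. Normexp gave 439 and 327 genes, and eBayes with trend and robust 431 and 282. Without the detection filter there were 67 and 19, and 0 members lower. Without the 2 arrays highest in hepatocyte markers limma called 0 and 0 genes, with 4182 at an unadjusted p under 0.05, and 0 members lower. Leaving out 1 array gave 25 to 109 genes higher, 5 to 27 lower and 0 members lower. With every probe tested, 1 member (Aqp4) was higher. Same-numbered animals correlated by -0.08, 0.11 and -0.17 in their deviations, beside -0.13 to 0.22 for the other pairs. With 3 arrays per group these values cannot settle whether the numbers pair the animals. The limma fit with the replicate block called 0 genes higher and 0 lower (4554 at an unadjusted p under 0.05). It called 0 members lower, with Kcne1 at an adjusted p of 0.127. Kcne1 kept its direction in all 20 other settings listed here and in the methods (-1.24 to -0.65, adjusted p 0.00318 to 0.228) and was called in 11. Aqp4 ranged from 0.49 to 1.16 (adjusted p 0.0536 to 0.248) and was called in 0 of the 20. The cause of the other changes was not tested. The 3 arrays per group limit the precision, and signal over background limits Pvalb, Edn1, Ptgs2 and Havcr1.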
